A study of Mus musculus with 6 samples.

Results

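The 10 genes described here encode transcription factors known from the epithelium of the airway and of the foregut it buds from: Nkx2-1, Sox2, Trp63, Foxa1, Foxa2, Gata6, Elf3, Ehf, Foxp1 and Foxp2. They were taken by symbol from the deposited table of 23478 genes, and all 10 were found and passed the filter on low counts. The table holds 6 libraries of cells sorted from the trachea of E13.5 mouse embryos, with 3 libraries of muscle cells and 3 of epithelial cells. Every embryo carried Bmp4 f/f, that is floxed Bmp4 alleles for which no Cre is named, and the gamma SMA eGFP reporter, and all 6 libraries are labelled as controls. Muscle cells were sorted by GFP, which stands for activity of the gamma smooth muscle actin reporter, and epithelial cells by an antibody to the surface protein Epcam. The labels do not say how many embryos went into a library, so the p-values measure the spread between these libraries only.

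The trachea and lung arise from the ventral wall of the foregut, where NKX2-1, a homeodomain protein, marks the respiratory territory. SOX2, an HMG-box protein, is found in the dorsal foregut that becomes oesophagus and later in the conducting airways. FOXA1 and FOXA2 are forkhead proteins that act in endoderm from early on and can bind closed chromatin, and TP63, a relative of p53 encoded by Trp63, is known from basal cells. ELF3 and EHF are ETS-family factors of epithelia, GATA6 is a zinc finger protein of endoderm and also of heart and smooth muscle, and FOXP1 and FOXP2 are forkhead repressors known from both layers of the lung and foregut.

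RefSeq promoter windows on build GRCm38.p6, from 250 bases before to 50 bases after a start site, were found for 6 of the 10 genes, in 10 windows of 300 bases. The 4 printed here belong to genes that were higher in epithelium: Nkx2-1 and Foxa2, which had the largest differences, and Foxa1 and Sox2, whose windows hold a match to the motif of their own family. Foxa2 has more than 1 window, and the one printed is the only one of them with a match. Capitals mark a match, on either strand, to 1 of 5 motifs: TGTTTAC for forkhead proteins, TCAAGTG for NKX2-1, AGATAAG for GATA factors, ACAAAGG for SOX and GGAAGTG for ETS, none of which overlapped another here.
Nkx2-1 promoter (chr12:56536859-56537158, minus strand): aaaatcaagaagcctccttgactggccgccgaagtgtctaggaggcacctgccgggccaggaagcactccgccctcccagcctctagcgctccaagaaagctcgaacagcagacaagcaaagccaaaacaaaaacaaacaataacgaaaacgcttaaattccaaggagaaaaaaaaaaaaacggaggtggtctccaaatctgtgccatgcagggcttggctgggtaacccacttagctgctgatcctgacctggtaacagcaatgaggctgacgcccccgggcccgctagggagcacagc
Foxa2 promoter (chr2:148045899-148046198, minus strand): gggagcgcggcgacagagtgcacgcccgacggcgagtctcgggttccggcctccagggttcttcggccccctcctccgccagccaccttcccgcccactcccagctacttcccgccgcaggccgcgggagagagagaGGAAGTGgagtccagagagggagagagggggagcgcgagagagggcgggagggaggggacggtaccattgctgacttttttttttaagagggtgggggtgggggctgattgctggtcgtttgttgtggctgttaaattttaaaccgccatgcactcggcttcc
Foxa1 promoter (chr12:57546062-57546361, minus strand): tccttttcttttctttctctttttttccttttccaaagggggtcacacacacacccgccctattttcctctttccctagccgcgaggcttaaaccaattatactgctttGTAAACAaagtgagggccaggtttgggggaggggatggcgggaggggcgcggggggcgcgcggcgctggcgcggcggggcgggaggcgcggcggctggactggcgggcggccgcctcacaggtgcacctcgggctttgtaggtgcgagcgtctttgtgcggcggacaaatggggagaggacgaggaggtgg
Sox2 promoter (chr3:34649745-34650044, plus strand): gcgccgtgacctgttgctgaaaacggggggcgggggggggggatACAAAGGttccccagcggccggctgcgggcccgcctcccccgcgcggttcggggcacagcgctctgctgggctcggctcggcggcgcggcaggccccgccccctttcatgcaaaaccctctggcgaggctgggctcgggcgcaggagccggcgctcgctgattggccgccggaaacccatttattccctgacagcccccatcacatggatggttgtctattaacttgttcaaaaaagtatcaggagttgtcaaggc
The Foxa1 window holds the forkhead letters on the strand opposite to the gene, with the first base at -141 from the start site, and such a match occurs in 3.65% of all 32851 promoter windows. The Sox2 window holds the SOX letters at -206 on the gene's strand, which 5.88% of all windows do. The Foxa2 window holds the ETS letters at -113, as 11% of all windows do, and the other Foxa2 windows and those of Nkx2-1, Elf3 and Foxp1 hold none of these letters. The Sox2 and Foxa1 windows have 27 and 26 CpG dinucleotides and that of Nkx2-1 has 12, against a median of 7 over all windows. The NKX2-1 and GATA letters occurred in 3.06% and 3.04% of all windows. Each of the 10 windows was searched for all 5 motifs, so a match to any of them is more likely than these single shares. Whether the matches exceed the background was not tested. A match is a description of the letters and not of binding.

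6 of the 10 genes were higher in epithelium, where 4.11% of the 19375 tested genes were called in that direction. They were Foxa2, Nkx2-1, Foxa1, Elf3, Sox2 and Trp63, with means 26.7 to 351 times those in muscle. Foxp2 was higher in muscle, in which direction 6.58% of tested genes were called. Gata6, Ehf and Foxp1 did not pass the threshold of 0.05 on the adjusted p of edgeR's quasi-likelihood test, fitted over all tested genes. Levels are given as CPM, the count per 1000000 counts of a library whose size was scaled by edgeR's TMM method. Fold changes are log2 of epithelium over muscle with a standard error (SE). The median log2 fold change was 5.05 over the 10 genes and 0.10 over all tested genes. In bulk RNA, fewer cells that express a gene and less RNA per cell cannot be told apart.

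**Figure D1:**
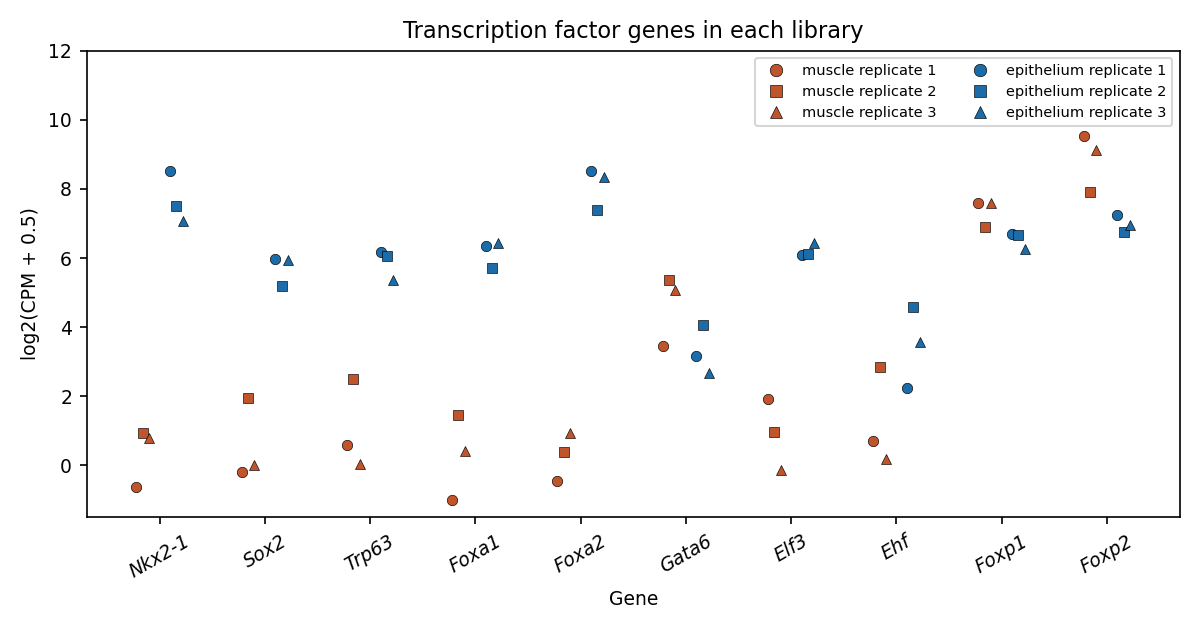
Level of each of the 10 genes in each library, as log2(CPM + 0.5), with muscle in orange, epithelium in blue and the replicate number as the marker shape. The epithelial libraries lie above all muscle libraries for 6 genes, as for 10.5% of all tested genes, the muscle libraries lie above for Foxp1 and Foxp2, as for 16.4% of all tested genes, and the populations overlap for Gata6 and Ehf.

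Total counts ranged from 11847432 to 54848820 per library. The 10 epithelial marker genes were all higher in epithelium and the 10 smooth muscle marker genes all higher in muscle. Among them are Epcam and Actg2, the gamma smooth muscle actin gene, whose difference the sort itself favoured. The summed level of the epithelial markers was 3667 to 4540 CPM in epithelium and 15.4 to 28.1 CPM in muscle, and that of the smooth muscle markers was 4137 to 17830 CPM in muscle and 122 to 155 CPM in epithelium. Muscle replicate 2 had the 4137. That library, epithelium replicate 2 and epithelium replicate 3 also carried counts for olfactory and vomeronasal receptor genes, whose mean per gene was 0.606, 1.25 and 0.437 CPM of the library total, against 0.00498 to 0.0260 in the other 3. Single receptor genes reached 8.37 CPM in muscle replicate 2 and 11.5 CPM in epithelium replicate 2. These are the highest of 1456 receptor genes and not a usual background level. Muscle replicate 3, with a mean of 0.0166 CPM, also had a receptor gene at 3.61 CPM. Whether lower values of other genes in these libraries are background was not tested.

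Nkx2-1 (chr12:56531958-56536908, minus strand) had 0.152, 1.40 and 1.21 CPM in muscle replicates 1 to 3 and 365, 181 and 135 CPM in epithelium replicates 1 to 3. The groups were far apart, and within epithelium replicate 1 stood above the other two. The mean was 0.921 ± 0.672 CPM (SD, n = 3) in muscle and 227 ± 122 CPM in epithelium, a log2 fold change of 7.94 ± 0.76 (SE, adjusted p = 0.0005). In the order of all 19375 tested genes by log2 fold change it stood at place 10.

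Foxa2 (chr2:148042877-148046969, minus strand) had the largest difference of the 10 genes and place 5 among all tested genes. Its levels were 0.228, 0.799 and 1.42 CPM in muscle and 367, 167 and 324 CPM in epithelium. The difference was 8.40 ± 0.67 on the log2 scale (SE, adjusted p = 0.00021). The lowest epithelial library was replicate 2, which still exceeded the highest muscle library.

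Foxa1 (chr12:57540628-57546916, minus strand), the close relative of Foxa2, had 0 counts in muscle replicate 1 and 2.25 and 0.834 CPM in muscle replicates 2 and 3. Its epithelial levels were 80.7, 52.2 and 85.9 CPM, which gave a log2 fold change of 6.20 ± 0.96 (SE, adjusted p = 0.0042). As with Foxa2, epithelium replicate 2 was the lowest of the epithelial libraries. Scaled by exon length within each epithelial library, Foxa2 was 6.39, 4.49 and 5.30 times as abundant as Foxa1. No such ratio was compared with muscle, where Foxa1 was at 0 in one library.

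Sox2 (chr3:34650405-34652461, plus strand) had 0.38, 3.34 and 0.506 CPM in muscle and 62.8, 36.2 and 61.4 CPM in epithelium. The difference was 5.31 ± 0.80 on the log2 scale (SE, adjusted p = 0.0037). Muscle replicate 2 was the highest muscle library, and without it the log2 fold change was 6.88. Trp63 (chr16:25683763-25892102, plus strand) was also highest in replicate 2 among the muscle libraries, with 0.988, 5.14 and 0.531 CPM, and had 71.8, 65.6 and 40.3 CPM in epithelium. The log2 fold change of Trp63 was 4.78 ± 0.79 (SE, adjusted p = 0.0057), and it was 6.30 without muscle replicate 2. The table gives 1 count per gene, so the forms of Trp63 with and without the transactivation domain were not separated.

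The muscle levels of these genes were small shares of their epithelial means. For Nkx2-1 the shares were 0.0670%, 0.616% and 0.535% in muscle replicates 1 to 3 and for Foxa2 they were 0.0797%, 0.279% and 0.495%. The median share over the 10 epithelial markers was 0.322%, 0.825% and 0.525% in the same libraries. Sox2 and Trp63 in muscle replicate 2 were at 6.25% and 8.68%, above the 2.09% that was the highest single marker there, while their 3.34 and 5.14 CPM were below the 8.37 CPM of the highest receptor gene. Foxa1 was at 3.08% in that library. Elf3 in muscle replicate 1 was at 4.43%, above the 1.53% of the highest marker there, and its 3.27 CPM exceeded the 1.94 CPM of the highest receptor gene in that library. The receptor values are CPM of the library total and the gene levels are scaled by TMM, so they are compared only roughly. The part of background counts in these muscle levels was not tested.

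Elf3 (chr1:135253575-135258568, minus strand) and Ehf (chr2:103263433-103303278, minus strand) are relatives that differed in how far they separated the populations. Elf3 had 3.27, 1.45 and 0.404 CPM in muscle and 67.3, 68.6 and 85.3 CPM in epithelium, a log2 fold change of 5.45 ± 0.66 (SE, adjusted p = 0.0012). The epithelial libraries were close together, and muscle replicate 1 was the highest of the muscle libraries. Ehf had 1.14, 6.74 and 0.632 CPM in muscle and 4.18, 23.6 and 11.3 CPM in epithelium. The groups overlapped, since muscle replicate 2 exceeded epithelium replicate 1, and the log2 fold change of 2.20 ± 0.97 (SE) did not pass (adjusted p = 0.23). Both libraries numbered 2 were the highest of their population for Ehf and for the mean of the receptor genes. Ehf was above the highest receptor gene in epithelium replicates 2 and 3 (11.5 and 4.80 CPM of the library total). In muscle replicate 2 it was below that gene (8.37 CPM). Whether the level of Ehf is linked to the receptor counts was not tested. Without muscle replicate 2 the log2 fold change of Ehf was 3.86 and passed (adjusted p = 0.017), and it also passed in the 2 libraries per population whose header identifiers name day 16 (0.0481) and with that day as a term (0.029).

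Within each library, which removes any scaling between libraries, Elf3 over Ehf per exon length was 7.21, 0.540 and 1.61 in muscle and 40.5, 7.32 and 19 in epithelium. Epithelial values were all higher, with epithelium replicate 2 just above muscle replicate 1. The muscle ratios rest on low levels. In muscle replicate 2 both genes were below the highest receptor gene, at 8.37 CPM of the library total without TMM scaling. In muscle replicate 3 Elf3 had 16 counts and Ehf 25. The part of background counts in these ratios was not tested. The mean log2 ratio was 3.27 higher in epithelium (two-sided exact permutation test, p = 0.10, the smallest that 3 against 3 libraries can give).

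Foxp2 (chr6:14901349-15441977, plus strand) was the only one of the 10 genes called higher in muscle. It had 743, 242 and 564 CPM in muscle and 152, 108 and 123 CPM in epithelium, a log2 fold change of -2.02 ± 0.40 (SE, adjusted p = 0.012). All muscle libraries exceeded all epithelial ones, and the lowest was muscle replicate 2, the library with the least smooth muscle marker RNA. Without epithelium replicate 3 the call was lost (adjusted p = 0.061), and without muscle replicate 2 the log2 fold change was -2.36.

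Foxp1 (chr6:98925338-99522721, minus strand) was present in both populations, with 192, 118 and 193 CPM in muscle and 104, 101 and 75.7 CPM in epithelium. Muscle values were all higher, as was so for 16.4% of all tested genes. The log2 fold change of -0.84 ± 0.28 (SE) did not pass (adjusted p = 0.095), but it passed without muscle replicate 2 (adjusted p = 0.021), in the day-16 libraries (0.019) and with DESeq2 (0.023). Foxp2 over Foxp1 per exon length was 3.25, 1.73 and 2.46 in muscle and 1.23, 0.903 and 1.37 in epithelium. The log2 ratio was thus 1.06 lower in epithelium on average, with no overlap between groups (two-sided exact permutation test, p = 0.10, the smallest possible). The exon length cancels in this comparison between populations, and Foxp2 made up more of the pair in muscle in each library.

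Gata6 had 10.3, 40.3 and 33.4 CPM in muscle and 8.49, 16.3 and 5.90 CPM in epithelium. The groups overlapped because muscle replicate 1 was below epithelium replicate 2. Its log2 fold change of -1.46 ± 0.54 (SE) did not pass (adjusted p = 0.14), and it passed without muscle replicate 1 (adjusted p = 0.030). An antisense gene, 1010001N08Rik (Gata6os in RefSeq), shares 93 exon bases with Gata6, or 1.43% of its exons, and had 3.58 ± 1.76 CPM (SD, n = 3) in muscle and 1.53 ± 0.571 CPM in epithelium. The sources do not say that counting used the strand, so reads from these shared bases cannot be assigned to either gene. The same holds for Elf3, of whose exon bases 7.31% lie opposite an antisense gene, Gm26642, not analysed here.

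**Figure D2:**
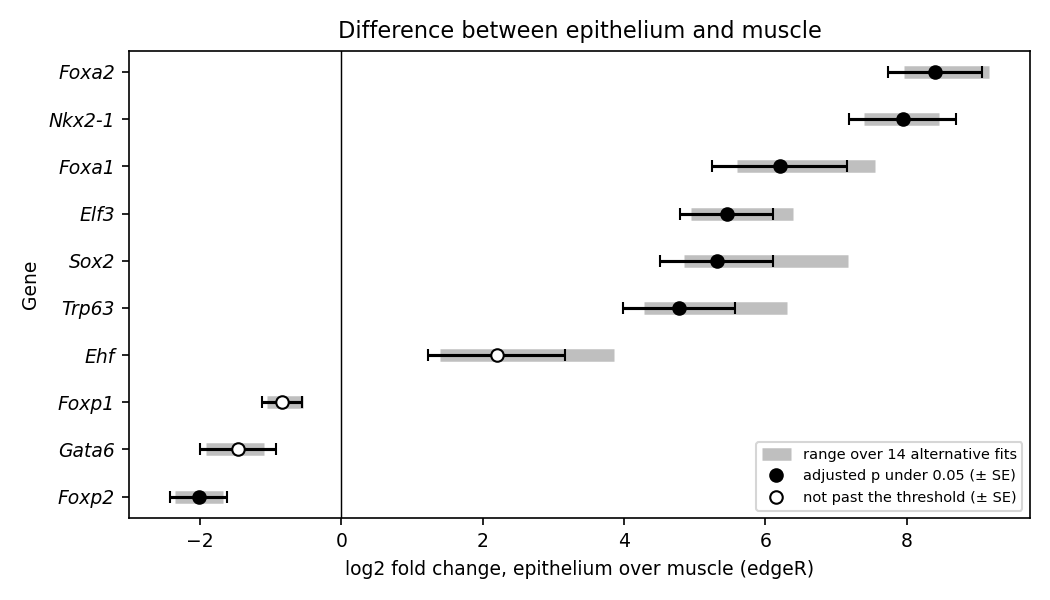
Log2 fold change of epithelium over muscle for each gene (point, with its SE), filled where the adjusted p was under 0.05 and open where it was not, over a grey bar for the range in 14 alternative fits. 6 genes lie between 4.78 and 8.40, and no bar crosses 0.

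The 6 genes called higher in epithelium passed in all 14 alternative fits at 0.05, with a highest adjusted p between 0.0049 for Foxa2 and 0.037 for Trp63, and they also passed at 0.01 in the fit reported. Foxp2 passed in 13 of the 14, Ehf and Foxp1 in 3 each and Gata6 in 1. Scaling by library totals alone moved the median of all tested genes from 0.10 to 0.33 and the share of calls higher in epithelium from 38.5% to 58%. All 10 genes kept their sign under that scaling, with Foxp2 at -1.70 and Foxp1 at -0.54.

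Levels were compared between genes only after division by the length of all exons in GENCODE M21. In epithelium Foxa2 was the most abundant, with 121 ± 44.5 CPM per kilobase (SD, n = 3), followed by Nkx2-1 with 79.8 ± 42.8. Foxa2 was above Nkx2-1 in each of the 3 libraries, but their ranges overlapped. Nkx2-1 was clear of Elf3 (33.3 ± 4.52), and the ranges of Elf3, Sox2 (26.0 ± 7.28) and Foxa1 (21.9 ± 5.45) overlapped from each to the next. Foxp2 (7.81 ± 1.36), Trp63 (7.06 ± 1.99) and Foxp1 (6.80 ± 1.12) followed with overlapping ranges. Ehf (2.34 ± 1.76) and Gata6 (1.57 ± 0.833) were the lowest, again with overlapping ranges.

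In muscle the order was another one. Foxp2 (31.6 ± 15.6 CPM per kilobase, SD, n = 3), Foxp1 (12.2 ± 3.14) and Gata6 (4.31 ± 2.41) came first with no overlap from each to the next, and the other 7 genes had means of 0.265 to 0.770, each overlapping the next. All exons of a gene together overstate the length of genes with many transcripts, of which Foxp1 has 31 and Foxp2 20. With the longest transcript instead, an alternative chosen after seeing the data, Foxp2 reached 18.9 and Foxp1 13.0 CPM per kilobase in epithelium, Foxp1 moved above Trp63 (11.0) with overlapping ranges, and the range of Foxp2 then overlapped that of Foxa1 (22.9).

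**Figure D3:**
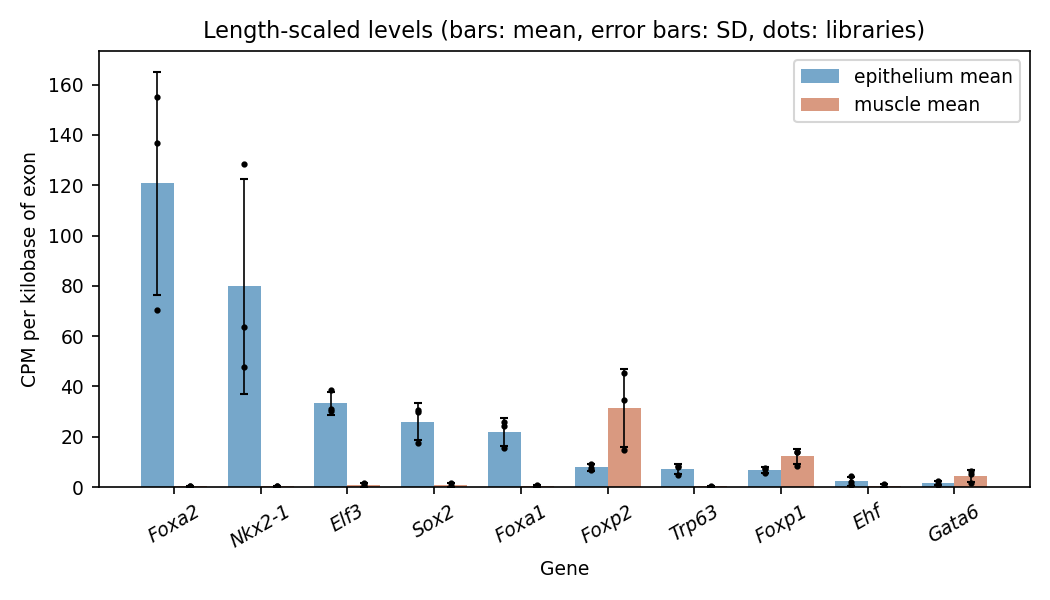
CPM per kilobase of exon for each gene, as the mean (bar), SD (error bar) and single libraries (dots) of epithelium (blue) and muscle (orange), ordered by the epithelial mean. Foxa2 and Nkx2-1 lead in epithelium at 121 and 79.8, and Foxp2 leads in muscle at 31.6.

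Other members of the same gene families were called about as often as all tested genes. Of 25 such genes in the table, 20 were tested, and 2 were higher in epithelium and none in muscle, where 10.7% of all tested genes were called in either direction. Their median log2 fold change was 0.29. Some had low levels, such as Sox1, Foxp3 and Nkx2-2 with an average log2 CPM of -0.53, -0.57 and -0.56. A missing call says little there. Elf1, an ETS-family gene, stood at 12.6 ± 1.71 CPM (SD, n = 3) in muscle and 43.1 ± 2.54 CPM in epithelium, a difference in log2 of 1.77 ± 0.23 (SE, adjusted p = 0.0017). Sox21, a SOX gene, had 0.528 ± 0.469 and 12.7 ± 4.47 CPM, and its adjusted p lay just under the threshold and rounds to it (log2 fold change 4.60, adjusted p = 0.05). Of the 14 alternative fits, 5 kept the call. With a library left out, 1 to 4 of these genes were called, 4 of them without muscle replicate 2. Trp53, the relative of Trp63 that encodes p53, had 115 ± 23.8 and 126 ± 38.3 CPM (log2 fold change 0.13 ± 0.30, adjusted p = 0.93). Elf2, another ETS-family gene, had 64.6 ± 16.2 and 74.9 ± 3.11 CPM (0.21 ± 0.25, adjusted p = 0.82). Another FOXP gene, Foxp4, named after its values were seen, had 25.1 ± 14.6 and 39.0 ± 13.7 CPM (0.63, adjusted p = 0.52), with overlap between groups.

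Among 29 tested genes for other transcription factors known from airway or lung epithelium, 12 were higher in epithelium and 1 in muscle, with a median log2 fold change of 3.38. 4.11% and 6.58% of all tested genes were called in these directions. Sox21, Spdef and Foxj1 are on this list and on that of the same families, so the call of Sox21 is counted in both. With a library left out, 8 to 14 genes of this list were higher in epithelium. Ovol2, a zinc finger gene of epithelial identity, had 0.125 ± 0.108 CPM (SD, n = 3) in muscle and 14.6 ± 1.53 CPM in epithelium, a log2 fold change of 6.90 ± 0.79 (SE, adjusted p = 0.001). Grhl2, which encodes a grainyhead-like factor of epithelial junctions, had 1.85 ± 1.83 and 158 ± 31.1 CPM (6.47 ± 0.69, adjusted p = 0.00078). Irx3, an Iroquois homeobox gene, had 0.733 ± 1.10 and 54.7 ± 17.6 CPM (6.35 ± 1.02, adjusted p = 0.0049). Klf5, a Krüppel-like factor gene, had 2.21 ± 1.43 and 154 ± 19.3 CPM (6.15 ± 0.48, adjusted p = 0.00019). All 4 passed in the 14 alternative fits. The gene higher in muscle was Sox9, which is known from lung tips and from cartilage (-2.01, adjusted p = 0.026), and it lost its call in 6 of the 14, among them those without muscle replicate 3 (0.072), epithelium replicate 1 (0.058) and epithelium replicate 3 (0.084).

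Transcription factor genes of other endoderm derivatives, such as thyroid, pharynx, stomach, liver and pancreas, gave 1 call among 15 tested, near the 10.7% of all tested genes called in either direction, and their median log2 fold change was 0.60. The call was Hhex, a homeobox gene of liver, thyroid and foregut endoderm, with 0.0760, 0.649 and 1.04 CPM in muscle and 123, 0.936 and 6.39 CPM in epithelium. Its groups overlapped, and its adjusted p of 0.04964 passed in only 3 of the 14 alternative fits. It was lost when epithelium replicate 1 (adjusted p = 0.51) or epithelium replicate 3 (0.077) was left out, when muscle replicate 1 (0.23), 2 (0.16) or 3 (0.22) was, and in 6 fits that kept all libraries, at 0.0539 to 0.34. Of genes not called, Klf4, a Krüppel-like factor gene, stood at 44.2 ± 21.6 CPM (SD, n = 3) in muscle and 21.6 ± 4.89 CPM in epithelium (-1.03, adjusted p = 0.12). Onecut2, of liver and pancreas, had 7.41 ± 11.3 and 11.4 ± 9.86 CPM (0.62, adjusted p = 0.92).

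The factors of the mesenchyme around the foregut went the other way in number. There were 22 tested genes, with 12 called for muscle and 1 for epithelium, against 6.58% and 4.11% of all tested genes in these directions. Their median log2 fold change was -3.10. Myocd, the coactivator of smooth muscle genes, had 309 ± 207 CPM (SD, n = 3) in muscle and 8.03 ± 6.51 CPM in epithelium, and its call was lost when replicate number was a block (adjusted p = 0.079) and without muscle replicate 1 (0.0507) or epithelium replicate 3 (0.066). Tbx5 (-4.47 ± 0.70, SE, adjusted p = 0.0042), Foxf1 (-4.10 ± 0.71, adjusted p = 0.0069) and Tbx4 (-3.76 ± 0.66, adjusted p = 0.0071) are known from lung and tracheal mesenchyme, and Foxf1 lost its call without epithelium replicate 1 (0.058). Isl1, a LIM-homeobox gene, was the one higher in epithelium, with 48.6, 15.4 and 17.2 CPM in muscle and 166, 76.1 and 89.2 CPM in epithelium (2.03 ± 0.50, adjusted p = 0.031). It lost its call in 4 of 14 fits, those of the day-16 libraries (adjusted p = 0.059) and those without muscle replicate 2 (0.06), muscle replicate 3 (0.10) or epithelium replicate 1 (0.07).

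Of 29 tested genes known as targets of NKX2-1, p63, SOX2, FOXA or the epithelial ETS factors, 12 were higher in epithelium and none in muscle, against 4.11% and 6.58% of all tested genes, with a median log2 fold change of 2.59. 5 of the 30 genes on this list are also epithelial markers used above, Cdh1, Cldn7, Cldn4 and Krt8 among them. All 5 were called, so part of this count repeats the markers of the sorted population. Cdh1, the E-cadherin gene, stood at 3.55 ± 2.42 CPM (SD, n = 3) in muscle and 684 ± 52.0 CPM in epithelium (log2 fold change 7.61 ± 0.54, SE, adjusted p = 0.00012). The claudin genes Cldn7 (7.60 ± 0.42, adjusted p = 9.6e-05) and Cldn4 (7.43 ± 0.64, adjusted p = 0.00036) and the keratin gene Krt8 (7.59 ± 0.49, adjusted p = 9.6e-05) were close to it. Genes of later lineages were named after their values were seen. Scgb3a2, a secretoglobin gene linked to NKX2-1, had 0.684, 2.90 and 0.379 CPM in muscle and 10.3, 30.3 and 19.4 CPM in epithelium (3.94, adjusted p = 0.014). Cldn18, a claudin gene also linked to NKX2-1, had 0.934 ± 1.32 and 38.9 ± 17.5 CPM (5.47, adjusted p = 0.013), and lost its call with a block for replicate number (0.0527) and without muscle replicate 1 (0.084), epithelium replicate 1 (0.079) or epithelium replicate 3 (0.063). Perp, a p63 target of desmosomes, had 5.09 ± 0.502 and 103 ± 12.4 CPM (4.33, adjusted p = 9.6e-05). Krt5, a basal keratin gene linked to p63, had 19.5 CPM in epithelium replicate 1 but 0.334 and 0.526 CPM in replicates 2 and 3 (adjusted p = 0.20). Of the 29 tested genes on this list, 17 were not called. Among these, Sftpb, Sftpd and Krt14 had log2 fold changes of 1.60, 1.55 and 2.59 (adjusted p = 0.83, 0.85 and 0.68). Abca3, Lamp3 and Sftpc had 0.72, -0.27 and -1.90 (0.26, 0.78 and 0.76). Dst, Col17a1 and Fras1 had -0.08, 0.03 and -0.55 (0.94, 0.99 and 0.25).

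**Figure D4:**
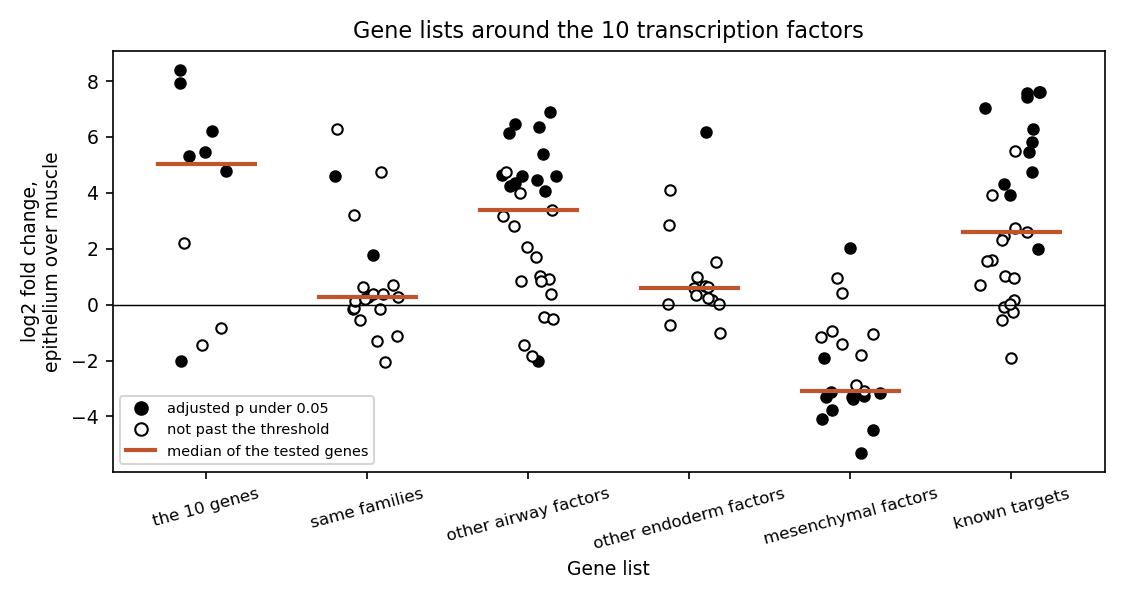
Log2 fold change of epithelium over muscle for the tested genes of each list, filled where the adjusted p was under 0.05, with the median of each list as an orange bar. The medians were 5.05 for the 10 genes, 0.29 for their families, 3.38 for other airway factors, 0.60 for other endoderm factors, -3.10 for mesenchymal factors and 2.59 for known targets.

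On the chromosome, the nearest RefSeq gene on each side of the 10 genes, or a gene overlapping them, was in the count table in 9 cases. The lncRNA E030019B13Rik (Sfta3-ps or Nanci in RefSeq, chr12:56490428-56529420) ends 2515 bases from Nkx2-1. It had 0.152, 1.05 and 0.253 CPM in muscle and 129 ± 40.0 CPM (SD, n = 3) in epithelium, a log2 fold change of 8.17 ± 0.67 (SE, adjusted p = 0.00025), and it passed in all 14 alternative fits. The gene 4921506M07Rik (Ttc6 in RefSeq, chr12:57546704-57737911) overlaps the RefSeq start of Foxa1 and shares no GENCODE exon with it. It had 0.841 ± 1.39 CPM in muscle and 56.0 ± 16.8 CPM in epithelium (6.20 ± 1.27, adjusted p = 0.015), and it lost its call in 4 of the 14 fits, at an adjusted p of up to 0.079.

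The remaining neighbours were not called. Sox2ot, the lncRNA in whose intron Sox2 lies, had 0, 6.49 and 0.177 CPM in muscle and a mean of 8.92 ± 5.34 CPM (SD, n = 3) in epithelium. Its groups overlapped (2.01 ± 1.61, adjusted p = 0.64), and without muscle replicate 2 it passed (adjusted p = 0.014). Rnpep, an aminopeptidase gene 4227 bases from Elf3, had 101 ± 22.8 and 173 ± 16.3 CPM (0.78 ± 0.25, adjusted p = 0.091) and passed in 7 of the 14 fits. Leprel1 near Trp63 (0.41, adjusted p = 0.91), A930006I01Rik near Ehf (2.23, adjusted p = 0.74) and Eif4e3 near Foxp1 (-0.23, adjusted p = 0.82) had overlapping groups, and Mir1897 near Sox2 had 0 counts in all 6 libraries.

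For each of the 10 genes, the gene with the most similar profile was the one with the smallest root mean square difference between log2(CPM + 0.5) values, each centred on its mean over the 6 libraries, among 12728 candidates. The likeness is a description over these 6 libraries. Eif5a2 was nearest to Foxp1 (0.07), Spock3 to Foxp2 (0.13), Hpn to Sox2 (0.17), Eps8l2 to Foxa1 (0.20), Ier3 to Gata6 (0.20), Shh to Trp63 (0.23), Dnah9 to Ehf (0.27), Krt8 to Foxa2 (0.32), Emb to Elf3 (0.36) and Cldn4 to Nkx2-1 (0.49). A second gene was almost as close in some cases, at 0.18 for Sox2, 0.33 for Foxa2 and 0.50 for Nkx2-1. The widest gap was that of Elf3, whose second gene was at 0.45. Hpn, which encodes the membrane protease hepsin, had 0.0760, 1.25 and 0.152 CPM in muscle and 38.0, 20.7 and 35.3 CPM in epithelium (log2 fold change 6.09, adjusted p = 0.0036). Shh, the hedgehog ligand gene of foregut epithelium, had 0, 2.00 and 0 CPM in muscle and 40.6, 26.4 and 16.4 CPM in epithelium. Its adjusted p was 0.0514, and 0.0001 without muscle replicate 2. Spock3, a proteoglycan gene, stood at 35.6, 12.7 and 23.3 CPM in muscle and 5.97, 4.55 and 5.45 CPM in epithelium (-2.16, adjusted p = 0.011, and not called without muscle replicate 1 or epithelium replicate 3).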

How the data were processed

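RNA of 6 sorted libraries was analysed, 3 of muscle and 3 of epithelium, grouped by their titles. The authors deposited whole-number counts per gene symbol. The submitters' processing notes name Trim Galore, Bowtie2, Cufflinks, DESeq and build mm10, with no role. The counting program and annotation are not given in the sources used here. cDNA was made with SMART-Seq v4 and libraries with Nextera XT, per the labels' protocols, without molecular identifiers, so counts include PCR copies. Of counts from 1 to 19, 73.8% to 79.6% per library were even. All 6 columns were used.

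Counts were tested in R 4.3.3 with edgeR 4.0.16 (filterByExpr, TMM, robust quasi-likelihood test, two-sided, no covariate), with Benjamini-Hochberg adjustment over 19375 genes and a threshold of 0.05. SE were derived from the test statistic. The fit was tested on simulated data. DESeq2 1.42.0 was an alternative. Positions and exon lengths are from GENCODE M21 (GRCm38, the build also called mm10), and promoters and neighbours from RefSeq GRCm38.p6. 4 neighbours were matched through RefSeq synonyms.

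The members and lists were chosen with earlier results of these data known. From each list up to 4 called genes per direction were named, with a log2 CPM averaging 2 or more, with up to 2 uncalled genes of the highest level where 3 or fewer were called, besides the nearest neighbours and the most similar profile. With 3 libraries per population, an exact permutation test cannot give a p under 0.10.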

Additional observations from a re-analysis of the deposited data

How the results depend on the processing

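The count of members higher in epithelium stayed at 6 in all settings but those that made it 7. Members higher in muscle numbered 2 with DESeq2 and in the day-16 libraries, 0 at an adjusted p under 0.01, and 0 to 2 without a library. Over all tested genes 2071 were called, 797 higher in epithelium and 1274 in muscle. The total was 3549 (1593 and 1956) with DESeq2, 983 (404 and 579) at an adjusted p under 0.01 and 3178 (2054 higher in muscle) with the identifier day as a term, and 1439 were higher in epithelium with library totals. Without a library the total ranged from 1169 (without epithelium replicate 3) to 2573, those higher in epithelium from 514 (without muscle replicate 1) to 918 and those higher in muscle from 570 to 1655.

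The header identifiers, read as dates, name day 3 for muscle and epithelium replicate 2 and day 16 for the other 4 libraries. Day 3 has 1 library per population and allows no test. Across 19375 genes, deviations of libraries with the same number correlated at r = 0.57 for replicates 1, 0.66 for replicates 2 and -0.42 for replicates 3. Muscle replicate 3 with epithelium replicate 1 also reached 0.66, and muscle replicate 2 with epithelium replicate 3 reached 0.41. The remaining pairs of unlike number were negative (-0.25 to -0.76). Among 3830 genes of higher level the same-number values were 0.20, 0.16 and -0.21. The numbers were thus not taken to pair the libraries, although both replicates 2 also share the day-3 identifier. With the replicate block 2418 genes were called and the counts of members were 6 and 1. Under it Sox9, Sox21, Hhex, Myocd, Foxf1, Tbx4, Cldn18 and Mcidas lost their call, and Rnpep gained one.

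Log2 fold changes that changed sign were all of genes not called, with these ranges when 1 library was left out: Trp53 -0.04 to 0.42 (negative without muscle replicate 2 or epithelium replicate 1), Onecut2 -0.27 to 3.65 (negative without epithelium replicate 2), Foxj1 -0.33 to 1.28 (negative without epithelium replicate 3), Krt5 -0.06 to 4.61 (negative without epithelium replicate 1), Leprel1 -0.16 to 0.77 (negative without epithelium replicate 2) and Eif4e3 -0.47 to 0.02 (positive without epithelium replicate 3, and 0.02 with library totals). The cause was not tested. Depth limits the muscle levels of the epithelial genes: 3 counts are 0.0608 to 0.170 CPM of a muscle library total, and background counts exceed that in muscle replicate 2.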

Other observations

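Genes named here were chosen after their values were seen. Mcidas, which encodes a regulator of multiciliated cell fate, had 0.228, 3.05 and 0.152 CPM in muscle and 22.0, 18.8 and 28.0 CPM in epithelium (log2 difference 4.37, edgeR adjusted p = 0.029). Its call was lost in 8 of 14 alternative fits. Foxj1, a factor of the same lineage, had at most 1.20 CPM in any library (log2 fold change 0.37, adjusted p = 0.97). Among the grainyhead-like genes, Grhl1 was higher in epithelium (4.46, adjusted p = 0.010, and 0.0518 without muscle replicate 1) as Grhl2 was, whereas Grhl3 had 42.0 ± 6.04 CPM (SD, n = 3) in muscle and 30.9 ± 11.2 CPM in epithelium (-0.44, adjusted p = 0.56). Mycn, the N-myc gene of embryonic epithelium, had 15.8, 12.5 and 9.93 CPM in muscle and 337, 98.9 and 201 CPM in epithelium (4.06, adjusted p = 0.001). Spdef, a relative of Elf3, had 9.65, 14.1 and 16.5 CPM in epithelium and 0, 1.5 and 0.0506 CPM in muscle, without passing (adjusted p = 0.077).

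Epithelium replicate 1 differed from replicates 2 and 3 in both directions in genes of other foregut derivatives. Hhex was at 123 CPM there and at 0.936 and 6.39 CPM in replicates 2 and 3, Krt5 at 19.5 against 0.334 and 0.526 CPM, and Pax9, a pharyngeal and oesophageal gene, at 22.9 against 6.08 and 3.87 CPM. Krt4, an oesophageal keratin gene, went the other way, at 0.372 against 10.9 and 9.54 CPM, as did Onecut2, at 1.23 against 20.9 and 12.1 CPM, and Hnf4a, at 0 against 3.54 and 2.37 CPM. Of these, Onecut2 and Hnf4a were at 20.4 and 3.89 CPM in muscle replicate 2, another library with receptor counts. Nkx2-1 was highest in epithelium replicate 1. The summed level of the 6 thyroid markers was 10.9 CPM there, against 33.2 and 19.8 CPM. That of the 6 oesophageal epithelium markers was 39.0 against 32.0 and 19.5 CPM, of which Pax9 and Pitx1 made up 22.9 and 13.2 CPM in replicate 1, while Krt13 and Sprr3 were at 0 counts there and above 0 in the other two. The part of such cells in these values was not tested.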
